A study of Arabidopsis thaliana with 8 samples.

Results

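The nuclear genes of the photosynthetic light reactions were followed in laser-microdissected epidermis and mesophyll of Arabidopsis thaliana embryo cotyledons. The 49 genes, chosen by their function and by their locus identifiers among the 33602 gene models counted, comprised 6 genes of the photosystem I antenna (LHCA), 15 of the photosystem II antenna (LHCB), 12 of photosystem I, 10 of photosystem II and 6 of electron transport and the ATP synthase. Both tissues came from wild-type Col-0 plants, and 4 libraries of epidermis were compared with 4 libraries of mesophyll. Labels gave each library a tissue and a replicate number, and the methods stated that a replicate was cut from embryos of 1 plant per harvest date, so that many embryos were pooled in each. The study's methods call the embryos linear, its results mostly place them at the torpedo stage, and the labels carry a whole-plant growth stage. The cDNA was amplified from polyadenylated RNA. Neither the strand of a transcript nor single molecules were tagged, so that p-values do not separate amplification from other error within a tissue. The question was which of these genes differed between the outermost cell layer and the inner photosynthetic tissue of the same organ.

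In the light reactions, antenna proteins that bind chlorophyll pass excitation energy to the reaction centres of photosystem II and photosystem I. Electrons taken from water by the oxygen-evolving complex then move through the cytochrome b6f complex, plastocyanin, photosystem I and ferredoxin, and the proton gradient drives the ATP synthase. The reaction centre proteins are encoded in the plastid genome, whereas the LHCA and LHCB antenna proteins and many peripheral subunits are encoded in the nucleus and imported. Arabidopsis embryos turn green while the cotyledons grow, and in leaves the mesophyll is the main photosynthetic tissue, with epidermal pavement cells holding few and small chloroplasts.

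The depth was 27676412 to 36685627 read pairs assigned to genes per library, and 4.44 to 4.98% of mapped reads had been removed because they fitted more than 1 place. Levels are given as CPM, the pairs of a gene as a proportion of the library's pairs times a fixed factor, scaled by the trimmed mean of M-values (TMM), and log2 fold changes as epidermis over mesophyll with their standard error (SE), from edgeR's quasi-likelihood test with the replicate number as a block. A gene was called at an adjusted p of 0.05 or less over the 15794 genes that reached 1 CPM in 4 or more libraries. All 49 light-reaction genes passed this filter. The tissue labels held against epidermis markers, since 10 of 10 were called higher in epidermis, with a summed level of 3402 to 6549 CPM in epidermis and 258 to 763 CPM in mesophyll. The mesophyll markers gave a less clear picture: RBCS1A (AT1G67090), a small subunit of Rubisco and the most abundant of them, had 8705, 7219, 6679.8 and 6142 CPM in epidermis replicates 1 to 4, against 9352, 8874, 9439 and 10694 CPM in mesophyll, while CA1 (AT3G01500) had at most 0.135 CPM in any library. None of the 4 mesophyll markers that passed the filter on low counts was called. All 4 had an unadjusted p under 0.05, 3 with a negative log2 fold change and 1, GLK1, with a positive one. Markers of the endosperm, a tissue that touches the embryo surface and that the study names as a probable contamination of the epidermis, summed to 185 to 316 CPM in epidermis and 17.7 to 72.9 CPM in mesophyll. SUC5 (AT1G71890) alone supplied on average 145 of 257 CPM in epidermis and 44.7 of 50.6 CPM in mesophyll. MYB118, ZOU, ALE1 and EPR1 averaged 23.9, 12.1, 45.7 and 24.1 CPM in epidermis, against 0.729, 0.358, 1.29 and 0.764 CPM in mesophyll. AGL62, the remaining endosperm marker that passed the filter, averaged 2.83 CPM in epidermis and 2.17 CPM in mesophyll. Of these only SUC5 was called, higher in epidermis. In a bulk sample, fewer cells of a type and less RNA per cell cannot be told apart. The study reports a somewhat lower RNA integrity for epidermis than for mesophyll, so RNA quality and tissue cannot be told apart either.

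Light-reaction transcripts were abundant in both tissues and lower in the epidermis libraries on average. Together the 49 genes took 5.71, 4.97, 4.46 and 3.72% of all assigned pairs in epidermis replicates 1 to 4, against 6.54, 6.22, 6.53 and 6.67% in mesophyll replicates 1 to 4. The means were 4.71 ± 0.842% in epidermis and 6.49 ± 0.192% in mesophyll (SD, n = 4 each), and the ranges did not overlap. On the TMM scale the summed level was 61649.8, 49147, 41219.6 and 39666 CPM in epidermis and 65592, 61456, 62716 and 67819 CPM in mesophyll, where epidermis replicate 1 lay just inside the mesophyll range.

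Per kb of transcript model, the antenna of photosystem II held both the most and the least abundant members. LHCB1.3, also called CAB1, averaged 9979 CPM per kb in epidermis and 14775 CPM per kb in mesophyll, whereas LHCB7, a rarely studied relative, averaged 1.73 and 3.82 CPM per kb in epidermis and mesophyll. In the photosystem I antenna, LHCA1 led with 1519 CPM per kb in epidermis and 2020.1 CPM per kb in mesophyll. LHCA5 and LHCA6, which in Arabidopsis join photosystem I to the NDH complex, stayed at 41.7 and 13 CPM per kb in epidermis, against 58.4 and 15.5 CPM per kb in mesophyll. Subunits of the photosystems and of electron transport spanned a narrower range, between 189 CPM per kb for PETE1 and 2038 CPM per kb for PSBR in epidermis, and between 236 and 2729 CPM per kb for the same genes in mesophyll.

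**Figure D1:**
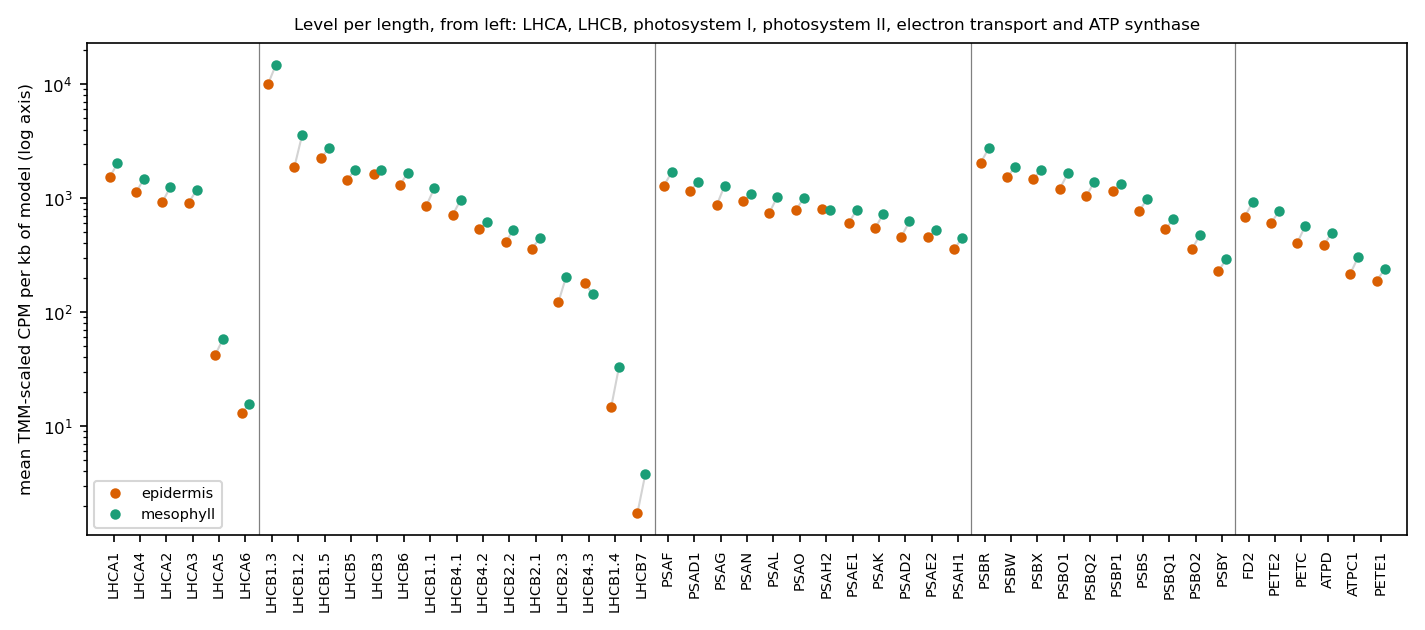
Mean level of each of the 49 genes in CPM per kb of transcript model on a log axis, with epidermis (orange, left) and mesophyll (green, right) means of 4 libraries joined by a line and genes ordered by mesophyll level within the 5 groups. LHCB1.3 stands at the top with 9979 CPM per kb in epidermis and 14775 CPM per kb in mesophyll, and the orange point lies above the green one only for LHCB4.3 and, barely, PSAH2.

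In the comparison, 48 of the 49 genes had a negative log2 fold change, where 53.1% of all tested genes had one. The median over the 49 genes was -0.40, and the median over all tested genes -0.04. Of the 49 genes, 23 had an unadjusted p under 0.05 in the lower direction, a share that was 5.43% over all tested genes. After adjustment 1 gene, LHCB1.2, was called lower in epidermis, against 0.101% of tested genes called lower. None of the 49 was called higher by edgeR, by its likelihood ratio test or by DESeq2, none had an unadjusted p under 0.05 in that direction, and 0.981% of tested genes were called higher by edgeR. In 10 genes all 4 epidermis libraries lay below all 4 mesophyll libraries, an order found in 4.51% of tested genes. Abundant genes had this order more often in general: of the 232 tested genes outside the list with a mesophyll level between 489 and 1526 CPM, the range that holds the middle of the 49 genes, 21.6% had it, 81.5% had a negative log2 fold change, and their median was -0.14. These 232 genes still hold other photosynthesis genes, among them the plastid-encoded PSAB and ATPB, which both had this order.

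**Figure D2:**
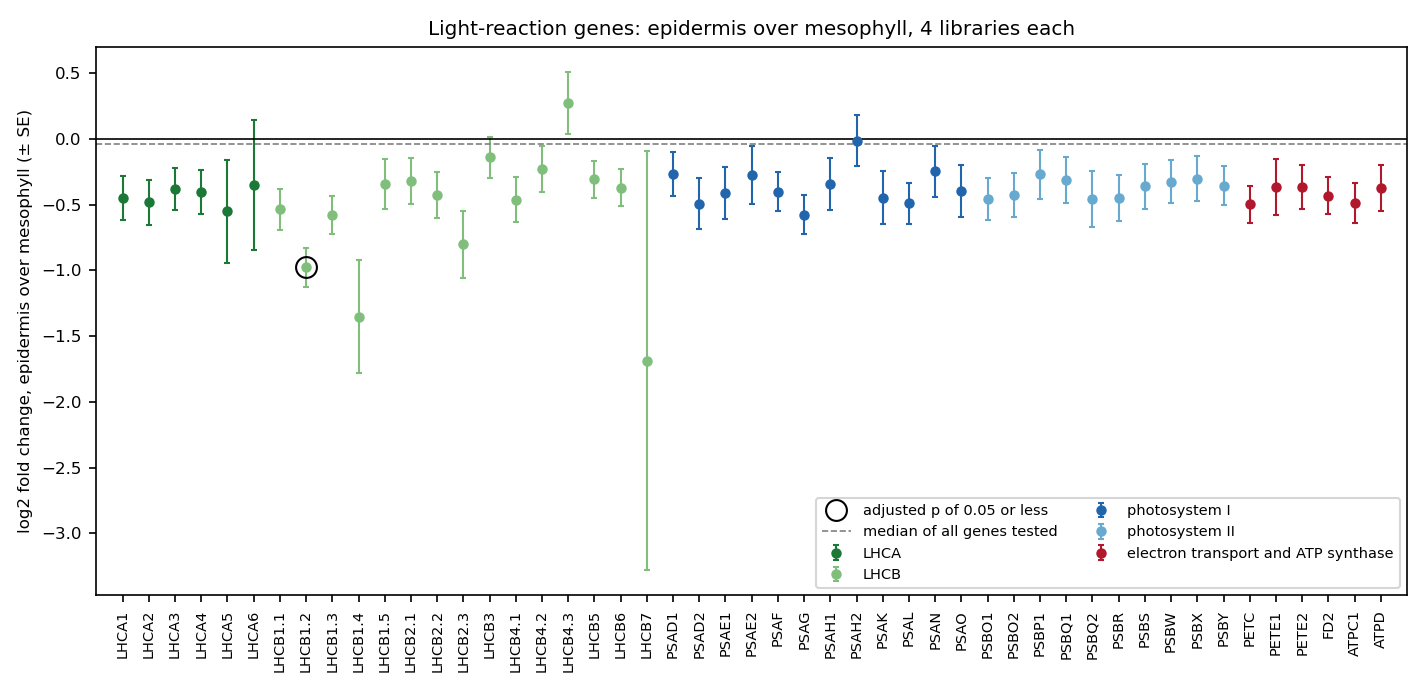
Log2 fold change of epidermis over mesophyll for each of the 49 genes (points, coloured by group) with its standard error (bars), from edgeR's fit to 4 libraries of each tissue. Of all points only LHCB4.3 lies above 0, and only LHCB1.2, at -0.98 and circled, had an adjusted p of 0.05 or less.

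The call count moved with the model and with single libraries. Without the replicate block 3 genes were called lower, LHCB1.2, LHCB1.3 and PSAG, against 0.538% of tested genes, and DESeq2 called 10, against 3.38% of tested genes. The 10 were LHCB1.1, LHCB1.2, LHCB1.3, LHCB1.4, LHCB2.3, PSAG, PSAL, PETC, FD2 and ATPC1. Leaving out any replicate pair under the block left 0 called by edgeR, with 7 to 37 of the 49 genes at an unadjusted p under 0.05. With no block and without epidermis replicate 1, 13 genes were called lower, and without any other single library only LHCB1.2 was.

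LHCB1.2, a gene of the trimeric light-harvesting complex II that is also called CAB3, showed the clearest difference. LHCB1.2 (AT1G29910) had 2566, 1667, 1818 and 1577 CPM in epidermis replicates 1 to 4, against 3952, 3573, 3456 and 3753 CPM in mesophyll replicates 1 to 4. All epidermis libraries lay below all mesophyll libraries, and even the highest, replicate 1, stood clear of the mesophyll range. The epidermis mean was 51.8% of the mesophyll mean, with a log2 fold change of -0.98 (SE 0.15, edgeR adjusted p = 0.0236). Over the planned and added alternatives the log2 fold change stayed between -1.13 and -0.87, while the adjusted p ran from 4.08e-09 with DESeq2 to 0.117 without replicate 3.

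LHCB1.2 lies on chromosome 1 next to LHCB1.1 and LHCB1.3, and the coding sequences of the 3 genes were 95.6 to 96.4% identical over 804 bases. Since reads with more than 1 equally good place had been removed, the sequence decides how well the genes can be told apart. Of all 705 windows of 100 bases (the read length) in each coding sequence, 2.41% of those of LHCB1.2 also occurred in another gene, against 7.66% for LHCB1.1 and 5.25% for LHCB1.3. The stretch of coding bases 414 to 513 below is shown because LHCB1.2 differs from both neighbours at 6 positions in it, in capitals, of 17 such positions in the coding sequence. It is exonic in the single exon of each gene, at chr1:10472734-10472833 (minus strand) for LHCB1.2, chr1:10475380-10475479 (minus strand) for LHCB1.1 and chr1:10478484-10478583 (plus strand) for LHCB1.3 in the RefSeq genome TAIR10.1, and is written 5′ to 3′ along the coding strand.
LHCB1.2: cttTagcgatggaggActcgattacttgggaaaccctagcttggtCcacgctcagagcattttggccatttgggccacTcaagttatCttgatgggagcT
LHCB1.1: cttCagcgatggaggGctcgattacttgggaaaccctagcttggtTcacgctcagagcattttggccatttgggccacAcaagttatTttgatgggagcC
LHCB1.3: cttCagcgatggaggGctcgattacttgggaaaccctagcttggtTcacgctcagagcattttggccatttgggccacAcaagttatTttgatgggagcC

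LHCB1.3, the most abundant gene of the set, was lower in every epidermis library as well. LHCB1.3 (AT1G29930) had 12744, 11099, 9088 and 8739.6 CPM in epidermis, against 16354, 13987, 14291 and 17066 CPM in mesophyll. Its ranges did not overlap, but the adjusted p was 0.134, with a log2 fold change of -0.58 (SE 0.15). Its locus overlaps a neighbouring gene, AT1G29940, and without strand information reads in the overlap cannot be assigned to one of them.

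In the remaining LHCB1 genes the libraries of the tissues overlapped. LHCB1.1 (AT1G29920) had a log2 fold change of -0.53 (SE 0.15), with 860.1 to 1392 CPM in epidermis and 1348 to 1528 CPM in mesophyll. LHCB1.4 (AT2G34430), a low gene, had 28.4, 11.9, 11 and 7.31 CPM in epidermis, against 36.7, 23.9, 35.7 and 36.9 CPM in mesophyll, and a log2 fold change of -1.35 (SE 0.43). LHCB1.5 (AT2G34420) had 1616 to 3383 CPM in epidermis, on both sides of its mesophyll range of 2635 to 2956 CPM. None of these 3 passed the test.

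Among the LHCB2 and LHCB3 genes, the other subunits of the trimers, no gene was called. LHCB2.1 (AT2G05100) and LHCB2.2 (AT2G05070) had log2 fold changes of -0.32 and -0.43, and are the members that share most sequence, with 18.5% of coding windows in common. LHCB2.3 (AT3G27690) had 165, 114, 113 and 68.7 CPM in epidermis, against 164, 243, 175 and 194 CPM in mesophyll, and a log2 fold change of -0.80 (SE 0.26, adjusted p = 0.243). LHCB3 (AT5G54270) was among the genes with the smallest difference, at -0.14 (SE 0.15).

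Of the monomeric antenna proteins that link the trimers to the core, LHCB4.3 was the only gene of all 49 with a positive log2 fold change. LHCB4.3 (AT2G40100), an isoform of CP29, had 264, 249, 129 and 166 CPM in epidermis, against 152, 151, 144 and 201 CPM in mesophyll. Epidermis replicates 1 and 2 lay above the mesophyll range, replicate 4 inside it and replicate 3 below it, and the log2 fold change of 0.27 (SE 0.24) did not pass the test (adjusted p = 0.764). Its sister LHCB4.1 (AT5G01530) had 686 to 1087 CPM in epidermis, all below the 1104 to 1241 CPM of mesophyll, and LHCB6 (AT1G15820), or CP24, had 1344 to 1801 CPM, all below 1883 to 2048 CPM. LHCB4.2 (AT3G08940) and LHCB5 (AT4G10340), the gene of CP26, had log2 fold changes of -0.23 and -0.31. LHCB7 (AT1G76570) was too low to compare, with 3.26, 2.93, 1.07 and 0.0337 CPM in epidermis and 2.64, 4.6, 3.52 and 5.35 CPM in mesophyll, the lowest value resting on 1 pair. Over the 15 LHCB genes, 14 log2 fold changes were negative with a median of -0.43, 8 genes had an unadjusted p under 0.05, 4 genes had ranges that did not overlap, and 1 was called. For the counts here and in the groups below, 53.1% of all tested genes were negative and 5.43% had such a p in the lower direction. All epidermis libraries lay below all mesophyll libraries in 4.51% of tested genes and in 21.6% of the 232 genes between 489 and 1526 CPM. Of the genes with this order, LHCB1.2, LHCB1.3, LHCB6 and PSAF lie above that range and PSBY below it. Of tested genes 0.101% were called lower.

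The photosystem I antenna behaved much like that of photosystem II in its median, with 6 of 6 log2 fold changes negative and a median of -0.43, but no LHCA gene had all epidermis libraries below the mesophyll ones and none was called. LHCA1 (AT3G54890) had 2215, 1870.4, 1440.2 and 1211 CPM in epidermis, against 2326, 2233, 2263 and 2139 CPM in mesophyll, with a log2 fold change of -0.45 (SE 0.16). LHCA2 (AT3G61470) had 1354, 1153, 784 and 783 CPM in epidermis, against 1453, 1364, 1290.4 and 1427 CPM in mesophyll, with a log2 fold change of -0.48 (SE 0.17, adjusted p = 0.295). In both genes epidermis replicate 1 reached the mesophyll range and the other epidermis libraries lay below it. LHCA6 (AT1G19150) had 21.1, 14.5, 12.5 and 6.16 CPM in epidermis and 20.8, 12.8, 17.3 and 13.7 CPM in mesophyll, where the tissues overlapped widely (log2 fold change -0.35, SE 0.50). LHCA3 (AT1G61520), LHCA4 (AT3G47470) and LHCA5 (AT1G45474) had log2 fold changes of -0.38, -0.40 and -0.55, and 4 of the 6 LHCA genes had an unadjusted p under 0.05.

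In photosystem I, 12 of 12 log2 fold changes were negative with a median of -0.40, 4 genes had an unadjusted p under 0.05, and none was called. The 3 genes without overlap were PSAG, PSAL and PSAF, an order that 21.6% of the 232 genes between 489 and 1526 CPM had. PSAF, with a mean of 1611 CPM in mesophyll, lies above that range. PSAG, a subunit on the side where the LHCA antenna binds, had the largest difference: PSAG (AT1G55670) had 761, 687, 653 and 599.5 CPM in epidermis, against 996, 976, 959 and 1086 CPM in mesophyll, with a log2 fold change of -0.58 (SE 0.15, adjusted p = 0.134). PSAL (AT4G12800), a subunit near the site where light-harvesting complex II docks, had 938, 763, 588 and 653 CPM in epidermis, against 1041, 1022, 1012 and 991 CPM in mesophyll (-0.49, SE 0.16). The plastocyanin-docking subunit PSAF (AT1G31330), the most abundant per kb of the photosystem I genes in mesophyll, had 1331, 1359, 1136 and 1068 CPM in epidermis, against 1655, 1459, 1619 and 1709.8 CPM in mesophyll. Every epidermis library of these 3 genes was below every mesophyll library, and in PSAF the gap between the tissues was 1359 against 1459 CPM.

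PSAD and PSAE form the stromal side of photosystem I where ferredoxin binds, and each is encoded by a pair of genes. PSAD1 (AT4G02770) had 1251, 906, 822 and 915 CPM in epidermis, against 1091, 1137, 1258 and 1139 CPM in mesophyll (-0.27, SE 0.17). PSAD2 (AT1G03130) had 616, 371, 309 and 346 CPM in epidermis, against 564, 519, 525 and 618 CPM in mesophyll (-0.49, SE 0.19). Epidermis replicate 1 lay inside the mesophyll range in both, and the other 3 below it. PSAE1 (AT4G28750) had 592, 407, 312 and 382 CPM in epidermis, against 522, 535, 586 and 549 CPM in mesophyll (-0.41, SE 0.20). PSAE2 (AT2G20260) had 384, 311, 192 and 209 CPM in epidermis, against 297, 325, 319 and 333 CPM in mesophyll (-0.28, SE 0.22). For PSAE1 and PSAE2 epidermis replicate 1 was the highest of all 8 libraries, and none of the 4 genes passed the test.

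PSAH, a small subunit at which light-harvesting complex II attaches during state transitions, is also encoded by a pair of genes. PSAH1 (AT3G16140) had 326, 239.8, 207 and 184 CPM in epidermis, against 277, 299.6, 303 and 307 CPM in mesophyll (-0.34, SE 0.20). PSAH2 (AT1G52230) had 727, 519, 430.3 and 437 CPM in epidermis, against 475, 531, 519 and 561 CPM in mesophyll, and its log2 fold change of -0.01 (SE 0.19) was the closest to 0 of the 49 genes and changed sign when the block or single libraries were left out. Both overlap a neighbouring gene. The remaining photosystem I genes, PSAK (AT1G30380), PSAN (AT5G64040) and PSAO (AT1G08380), had log2 fold changes of -0.45, -0.25 and -0.40, with adjusted p of 0.445, 0.733 and 0.504.

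In photosystem II, 10 of 10 log2 fold changes were negative with a median of -0.36, 4 genes had an unadjusted p under 0.05, and none was called. The log2 fold changes were the most alike of the 5 groups outside electron transport, between -0.46 and -0.27. The extrinsic proteins PSBO, PSBP and PSBQ, which stabilise the oxygen-evolving cluster, gave 1840.4, 1548, 1516 and 1134 CPM for PSBO1 (AT5G66570) in epidermis, against 2054, 1839, 2271 and 2023 CPM in mesophyll (-0.46, SE 0.16). PSBO2 (AT3G50820) had 578, 407, 417 and 363 CPM in epidermis, against 597, 528, 571 and 649 CPM in mesophyll (-0.43, SE 0.17). In both PSBO genes only epidermis replicate 1 reached the mesophyll range, in PSBO1 narrowly.

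PSBP1 (AT1G06680), with the most positive value of this group at -0.27 (SE 0.19), had 1882, 1249, 1030.5 and 1057 CPM in epidermis, against 1463, 1581, 1413 and 1646 CPM in mesophyll. PSBQ1 (AT4G21280) had 599, 550.5, 406 and 378 CPM in epidermis, against 599.7, 589, 696 and 489.7 CPM in mesophyll (-0.31, SE 0.17). PSBQ2 (AT4G05180) had 1526, 1152, 753 and 883 CPM in epidermis, against 1345, 1301, 1343 and 1756 CPM in mesophyll (-0.46, SE 0.21). The tissues overlapped in all 3, since epidermis replicate 1 exceeded the highest mesophyll library for PSBP1 and lay within the mesophyll range for PSBQ1, together with replicate 2, and for PSBQ2. PSBR (AT1G79040), a small protein tied to the assembly of the oxygen-evolving complex, had 1959, 1531, 1187 and 1191 CPM in epidermis, against 1850.2, 2059, 1862 and 2088 CPM in mesophyll (-0.45, SE 0.17, adjusted p = 0.344). PSBY (AT1G67740), a small intrinsic subunit, was the only photosystem II gene without overlap, with 218 to 275 CPM in epidermis and 294 to 337 CPM in mesophyll. PSBS (AT1G44575), which triggers the heat dissipation of excess light, and the small subunits PSBW (AT2G30570) and PSBX (AT2G06520) had log2 fold changes of -0.36, -0.32 and -0.30.

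Between and after the photosystems, 6 of 6 genes had negative log2 fold changes within a narrow span of -0.50 to -0.37, and none was called. PETC (AT4G03280), the Rieske iron-sulphur protein of the cytochrome b6f complex, had 455, 412, 377 and 393 CPM in epidermis, against 573, 583, 546 and 605 CPM in mesophyll (-0.50, SE 0.14, adjusted p = 0.186). FD2 (AT1G60950), the main leaf ferredoxin, had 628, 588, 519 and 541 CPM in epidermis, against 761, 776, 718 and 813 CPM in mesophyll (-0.43, SE 0.14). All epidermis libraries of PETC and FD2, replicate 1 included, lay below the mesophyll ones. ATPC1 (AT4G04640), the gamma subunit of the ATP synthase, had 416, 308, 301 and 296 CPM in epidermis, against 511, 421, 410.1 and 502 CPM in mesophyll (-0.49, SE 0.15), and epidermis replicate 1 alone reached the mesophyll range. The plastocyanin genes gave 217, 132, 121 and 122 CPM for PETE1 (AT1G76100) in epidermis, against 176, 205, 170.2 and 188 CPM in mesophyll (-0.37, SE 0.21). PETE2 (AT1G20340) had 765, 523, 469 and 505 CPM in epidermis, against 706, 703, 752 and 697 CPM in mesophyll (-0.37, SE 0.17), and for both genes epidermis replicate 1 was above the highest mesophyll library. ATPD (AT4G09650), the delta subunit, had a log2 fold change of -0.37.

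Epidermis replicate 1 thus stood apart from the other epidermis libraries for nearly the whole set. It was the highest epidermis library for 47 of the 49 genes, and it lay below the lowest mesophyll library for 11 genes, whereas replicates 2, 3 and 4 did so for 41, 49 and 48 genes. Taken relative to the mesophyll mean, the median log2 level over the 49 genes was -0.00 in replicate 1, -0.35 in replicate 2, -0.60 in replicate 3 and -0.65 in replicate 4. The median coefficient of variation over the 49 genes was 23.9% in epidermis and 6.31% in mesophyll. For the 232 genes of similar level outside the list the medians were 14.2% in epidermis and 9.18% in mesophyll. The epidermis markers summed to 4816, 6549, 3402 and 4406 CPM in epidermis replicates 1 to 4 and the endosperm markers to 316, 248, 185 and 279 CPM. Replicate 1 was thus second highest in the epidermis sum and highest in the endosperm sum. By gene the endosperm markers varied in order. SUC5 was highest in replicate 2 (202 CPM), and ALE1 and EPR1 were highest in replicate 1 (66.2 and 37.6 CPM). MYB118 and ZOU were highest in replicate 4 (57.2 and 22.4 CPM). Vascular markers summed to 47.6, 35.5, 215 and 217 CPM in epidermis replicates 1 to 4, against 229, 195, 309 and 177 CPM in mesophyll, and seed coat markers to 79.1 to 221 CPM in epidermis and 108 to 210 CPM in mesophyll. Most of the seed coat sum came from SBT1.7 (AT5G67360), on average 111 of 136 CPM in epidermis and 154 of 167 CPM in mesophyll. The part of other cells in the levels of the light-reaction genes was not tested.

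**Figure D3:**
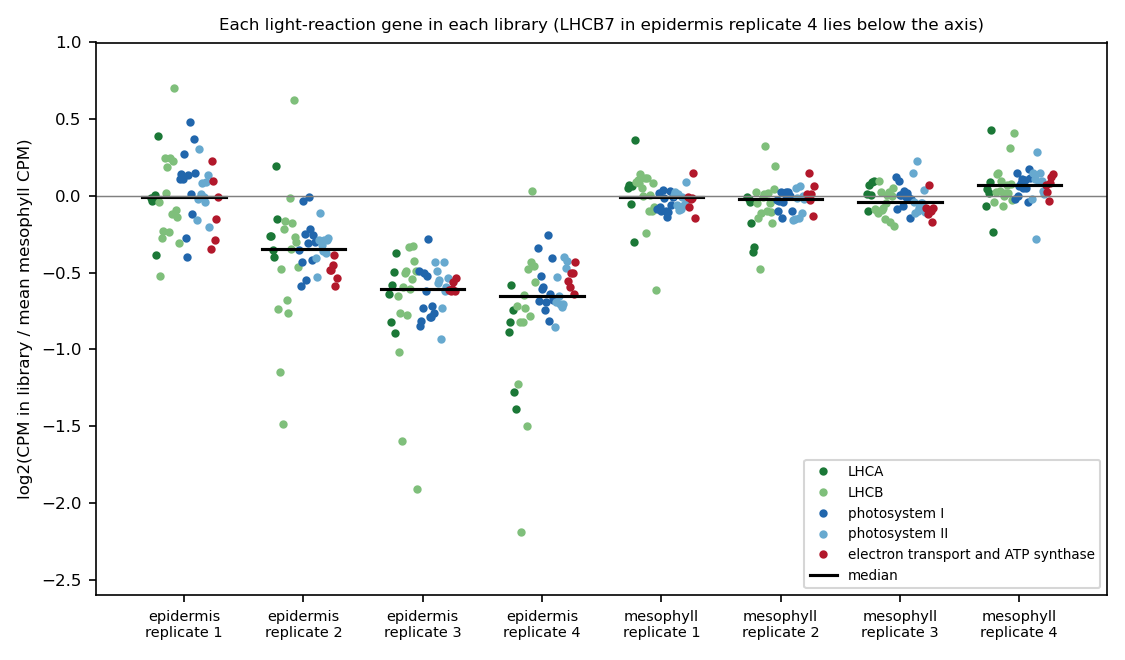
Log2 level of each of the 49 genes in each library relative to its mean in mesophyll, with epidermis replicates 1 to 4 left of mesophyll replicates 1 to 4, points coloured by group and a black line at the median. The medians of epidermis replicates 2, 3 and 4 sit at -0.35, -0.60 and -0.65, while that of replicate 1 sits level with the mesophyll libraries.

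Compared as sums, the 5 groups were lower in epidermis by similar amounts. The LHCB sum was 29790.2, 24177, 20569.6 and 19257 CPM in epidermis and 34399, 30816, 31381 and 34814 CPM in mesophyll, without overlap, and the epidermis mean was 71.4% of the mesophyll mean. The sums of LHCA, photosystem I, photosystem II and electron transport with the ATP synthase in epidermis were on average 75.8, 78.8, 78.3 and 75.2% of those in mesophyll, and apart from electron transport their ranges overlapped through epidermis replicate 1. Read within each library, which removes the scaling, the ratio of the LHCB sum to the photosystem II sum was 2.37, 2.50, 2.55 and 2.44 in epidermis replicates 1 to 4, against 2.90, 2.60, 2.59 and 2.69 in mesophyll, and replicate 1 was here the lowest of the epidermis libraries. These ranges did not overlap, with means of 2.46 ± 0.0771 in epidermis and 2.69 ± 0.144 in mesophyll (SD, n = 4 each), and LHCB1.3 alone supplies a large part of the LHCB sum. The ratio of LHCB to photosystem I was 3.09 to 3.46 in epidermis and 3.42 to 3.82 in mesophyll, which overlap. Photosystem I over photosystem II was 0.760 ± 0.0233 in epidermis and 0.754 ± 0.00567 in mesophyll, and LHCA over photosystem I was 0.726 ± 0.0514 in epidermis and 0.757 ± 0.0270 in mesophyll, both with overlapping ranges.

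**Figure D4:**
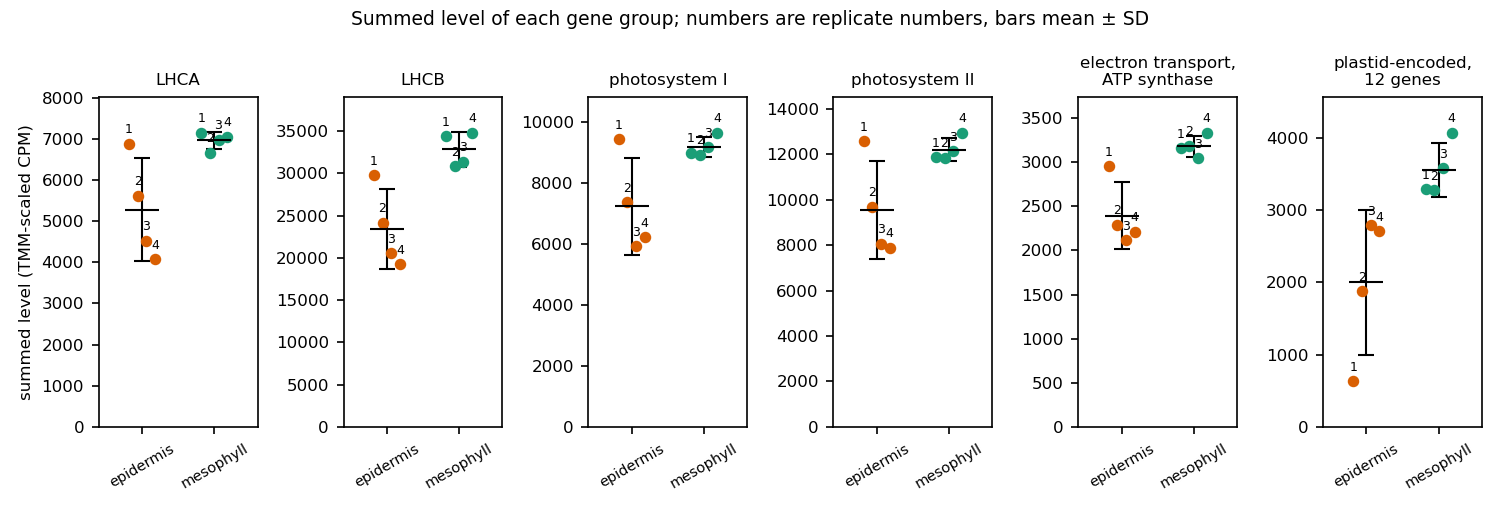
Summed level of each gene group in TMM-scaled CPM, with 1 point per library marked by its replicate number, epidermis (orange) left of mesophyll (green), and bars at the mean and SD of 4 libraries. Epidermis replicate 1 is the highest epidermis library in the 5 nuclear groups and the lowest in the sum of the 12 plastid-encoded genes, where it sits at 630.0 CPM.

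The plastid-encoded partners ran differently in that library. The 12 genes measured for reaction centre, cytochrome and ATP synthase subunits summed to 629.97, 1879.6, 2796 and 2712 CPM in epidermis replicates 1 to 4, against 3292, 3275, 3584 and 4074 CPM in mesophyll. The library with the highest nuclear levels thus had the lowest plastid-encoded sum. PSAB (ATCG00340) weighed most in it, with 397, 802, 1242 and 1123 CPM in epidermis replicates 1 to 4. Replicate 1 was not the lowest epidermis library for PSBA, PSBD, PSAC and PETD. For PSAC it was the highest (10.7 CPM), and for the other genes it was the lowest. ATPB (ATCG00480), the beta subunit of the ATP synthase, had 19.6, 657, 928 and 1018 CPM in epidermis, against 1248, 1151, 1291 and 1518 CPM in mesophyll. All 12 had a negative log2 fold change and 6 an unadjusted p under 0.05, but none was called. Plastid messages largely lack poly(A) tails, so that a library primed on poly(A) samples them only in part.

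Where a subunit has more than 1 gene, the share of each paralog in its family is a measure within the library. For PSAH the share of PSAH1 was 30.9, 31.6, 32.5 and 29.6% in epidermis replicates 1 to 4, against 36.8, 36.1, 36.9 and 35.4% in mesophyll. All 4 epidermis libraries were lower, replicate 1 included, with means of 31.1 ± 1.21% in epidermis and 36.3 ± 0.714% in mesophyll. When reads were counted singly instead of as pairs the means were 25.7% in epidermis and 30.8% in mesophyll, so that the level of the share depended on the counting and the order of the tissues did not. LHCB1.2 held 12.8, 10.4, 13.3 and 12.3% of the LHCB1 pairs in epidermis, against 15.9, 16.5, 15.7 and 14.9% in mesophyll. LHCB4.1 held 52.2 ± 2.83% of the LHCB4 pairs in epidermis and 58.1 ± 1.1% in mesophyll, and LHCB4.3 held 11.9 ± 1.89% in epidermis and 7.94 ± 1.01% in mesophyll. Of the paralog shares examined, 4 had ranges that did not overlap between the tissues and 19 had ranges that did. The 4 were PSAH1 with its complement PSAH2, LHCB1.2 and LHCB4.1, while the ranges of LHCB4.3 met at 9.35% in epidermis and 9.40% in mesophyll. How often paralog shares of other gene families separate was not computed.

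In the other pairs the shares overlapped. PSAD1 held 70.8 ± 2.66% of PSAD pairs in epidermis and 67.5 ± 2.60% in mesophyll, and PSAE1 held 60.9 ± 3.30% of PSAE pairs in epidermis and 63.2 ± 1.23% in mesophyll. PSBO1 held 77.4 ± 1.7% of PSBO pairs in epidermis and 77.7 ± 1.73% in mesophyll, and PETE1 held 20.5 ± 1.08% of PETE pairs in epidermis and 20.6 ± 1.76% in mesophyll. The share of PSBQ1 was 31.4 ± 2.98% in epidermis and 29.5 ± 5.32% in mesophyll, where mesophyll replicate 4 alone had 21.8%. These shares had no test, since the families were chosen with results of these data known.

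**Figure D5:**
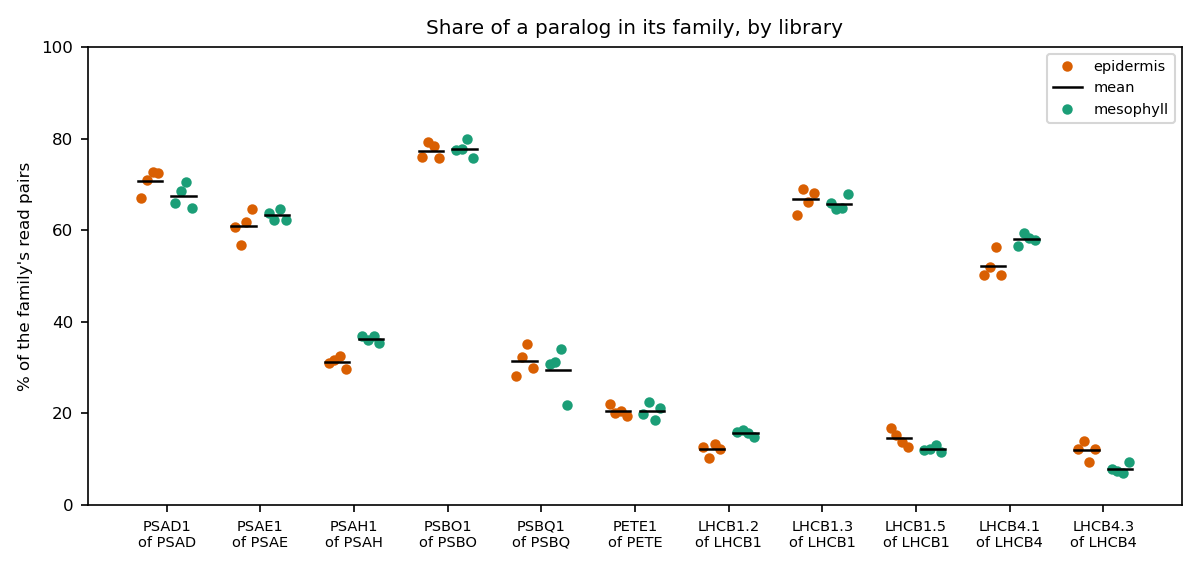
Share of a paralog among the read pairs of its gene family in percent, with 1 point per library, epidermis (orange) left of mesophyll (green) and a black line at the mean of 4 libraries. The orange and green points separate for PSAH1 (29.6 to 32.5% in epidermis, 35.4 to 36.9% in mesophyll), LHCB1.2 and LHCB4.1 and overlap for the other genes drawn.

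How far near-identical copies could distort these values was read from the sequences. Windows of 100 coding bases that also occur elsewhere were found in 7 of the 49 genes, the 5 LHCB1 genes with 2.41 to 7.66% of windows and LHCB2.1 and LHCB2.2 with 18.5% each, and in none of the other 42. The paralog pairs outside the LHCB1 and LHCB2 families had coding identities of 65.0 to 87.0%, with PSAH1 and PSAH2 the closest at 87.0%, and shared no such window. Exact coding windows leave out untranslated ends, shorter reads and inexact matches, so they cannot show that these paralogs lost no reads. Reads in counted pairs, as a percentage of reads counted singly, were 108% for PSAH1 and 83.5% for PSAH2. They were 104% for both LHCB2.1 and LHCB2.2. The cause of this difference in PSAH was not tested. Of the 49 loci, 17 overlap another annotated gene in TAIR10.1, among them LHCB1.3, PSAG, PSAH1, PSAH2, PSBP1 and PSBR. For these the unstranded counts may have lost reads that fit both genes, or may hold reads of the neighbour, which was not tested.

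Other genes of the light reactions that were not in the set were mostly negative too. Of 33 such genes 32 were tested and 27 had a negative log2 fold change, where 53.1% of all tested genes had one. The share was 81.5% in the 232 genes between 489 and 1526 CPM in mesophyll. Most of the 33 genes lay below that range, so it does not match their level. An unadjusted p under 0.05 was found for 9 genes in the lower and 1 in the higher direction, and 1 gene was called lower, where 5.43% of all tested genes had such a p in the lower direction and 0.101% were called lower. This was FNR2 (AT1G20020), one of the leaf enzymes that pass electrons from ferredoxin to NADP, with 95.1, 84.8, 83.4 and 64.2 CPM in epidermis, against 183, 149.6, 164 and 155 CPM in mesophyll and a log2 fold change of -1.0 (SE 0.18, adjusted p = 0.0464). ELIP2 (AT4G14690), an early light-induced protein of the same superfamily as the antenna, ran the other way with 112, 123, 100.2 and 185 CPM in epidermis, against 52.4, 71.2, 59.5 and 51.6 CPM in mesophyll, without overlap, and a log2 fold change of 1.11 that missed the threshold (adjusted p = 0.0823). GLK1 (AT2G20570) and GLK2 (AT5G44190), transcription factors known in Arabidopsis to activate nuclear photosynthesis genes, had log2 fold changes of 0.78 and -1.03. GLK1 had 103, 76.5, 95.2 and 109 CPM in epidermis, against 65.7, 41.6, 49.8 and 68.4 CPM in mesophyll, and GLK2 had 13.2, 8.86, 22.7 and 16.6 CPM in epidermis, against 24.2, 26.0, 37.0 and 33.6 CPM in mesophyll. The tissues did not overlap for either gene, in opposite directions, and neither was called (adjusted p = 0.129 for GLK1 and 0.278 for GLK2).

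The promoters were searched for 4 motifs that the choice of genes had not used, and no motif was in more than 21 of the 49. In windows of 250 bases before to 50 after the annotated start, searched on both strands, CACGTG (the G-box) occurred in 16 of the 49, or 32.7%, against 7.68% of 27443 gene promoters of TAIR10.1. GATAAG (the I-box) occurred in 21, or 42.9%, against 14.6%, and CCAATC in 18, or 36.7%, against 12.3%, while AAAATATCT (the evening element) occurred in 2, or 4.08%, against 2.82%. The groups differed in which motif they held: CCAATC was found in 8 of 15 LHCB genes and in 1 of 12 photosystem I genes, GATAAG in 8 of 12 photosystem I genes and 4 of 15 LHCB genes, and CACGTG in 6 of 10 photosystem II genes. The motifs do not overlap one another in sequence. The median log2 fold change was -0.41 with and -0.40 without CACGTG, and -0.40 with and -0.42 without GATAAG. A match describes letters only and says nothing of binding.

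The windows of LHCB1.2, the called gene, and of its neighbour LHCB1.3 are printed with those of PSAH1 and PSAH2, whose shares differed between the tissues. They are read from the RefSeq genome TAIR10.1 on each gene's own strand, 5′ to 3′, with matches to the 4 motifs or their reverse complements in capitals: LHCB1.2 at chr1:10473453-10473752 (minus), LHCB1.3 at chr1:10477635-10477934 (plus), PSAH1 at chr3:5469545-5469844 (minus) and PSAH2 at chr1:19454548-19454847 (plus).
LHCB1.2: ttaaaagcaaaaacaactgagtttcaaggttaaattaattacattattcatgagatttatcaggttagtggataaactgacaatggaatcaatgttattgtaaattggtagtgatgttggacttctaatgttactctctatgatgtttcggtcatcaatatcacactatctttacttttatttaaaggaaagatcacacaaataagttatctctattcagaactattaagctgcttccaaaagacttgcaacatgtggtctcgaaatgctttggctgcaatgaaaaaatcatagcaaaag
LHCB1.3: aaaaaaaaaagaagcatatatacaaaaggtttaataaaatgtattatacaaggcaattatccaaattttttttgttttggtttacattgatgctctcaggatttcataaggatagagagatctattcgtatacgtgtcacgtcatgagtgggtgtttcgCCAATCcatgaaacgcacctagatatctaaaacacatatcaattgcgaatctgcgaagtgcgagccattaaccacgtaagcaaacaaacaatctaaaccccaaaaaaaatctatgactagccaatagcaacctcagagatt
PSAH1: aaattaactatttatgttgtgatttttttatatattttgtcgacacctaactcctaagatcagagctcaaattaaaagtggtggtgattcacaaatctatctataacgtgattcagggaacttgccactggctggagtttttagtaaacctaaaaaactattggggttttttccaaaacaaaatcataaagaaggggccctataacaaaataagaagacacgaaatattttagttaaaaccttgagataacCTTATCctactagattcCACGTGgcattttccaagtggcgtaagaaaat
PSAH2: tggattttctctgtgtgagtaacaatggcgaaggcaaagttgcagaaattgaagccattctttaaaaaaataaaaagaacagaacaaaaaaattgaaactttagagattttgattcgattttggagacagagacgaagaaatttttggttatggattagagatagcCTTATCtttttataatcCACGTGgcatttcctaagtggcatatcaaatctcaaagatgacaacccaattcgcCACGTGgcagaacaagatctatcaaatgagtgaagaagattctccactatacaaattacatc

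The window of LHCB1.2 held none of the 4 motifs, and that of LHCB1.3 held 1 CCAATC. The windows rest on the annotated starts of TAIR10.1, where 35.3% of the models compared had the length of the counted model. LHCB1.2 is annotated there at chr1:10472280-10473502 with 1 exon, longer than its counted model of 1020 bases. Its window ends before the coding sequence, and the bases between them were not searched. PSAH1 and PSAH2 both held an I-box, on the opposite strand, followed after 11 bases by a G-box, and PSAH2 held 1 more G-box nearer to its start. In PSAH1 the pair lies just after the annotated start and in PSAH2 before it. Among the 49 genes, 7 held both a G-box and an I-box, and 14 held neither of these nor CCAATC.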

How the data were processed

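The authors dissected epidermis and mesophyll from sections of paraffin-embedded seeds, amplified cDNA with a SMART-Seq kit, sequenced paired reads, aligned them to TAIR10 (Bowtie2 and TopHat2 are named in the submitters' processing notes), removed reads with several places and counted pairs per gene. The deposited files hold these raw counts of read pairs per gene by the authors, 1 file per library, next to reads counted singly. The study fitted harvest date; labels give only a replicate number, which was used in its place.

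edgeR 4.0.16 (R 4.3.3; TMM scaling, quasi-likelihood F test in its legacy form, Benjamini-Hochberg over 15794 genes that reached 1 CPM in 4 or more libraries) tested tissue plus replicate number, after a test on simulated data. Replicates are separate plants per the methods. Alternatives were no replicate block, the likelihood ratio test, DESeq2 1.42.0, RLE scaling, library totals, a 10 CPM filter, no filter, reads counted singly and each replicate left out; each single library left out without the block was added after seeing the data. Lengths are those in the deposited files, sequences those of RefSeq TAIR10.1, where all 49 identifiers matched.

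Members, lists and tests were chosen with earlier results of these data known. Described with every library's value are called genes, in each group the 2 smallest unadjusted p, the most abundant per kb and the most positive log2 fold change, and the 6 paralog pairs.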

Additional observations from a re-analysis of the deposited data

Results flagged for a closer look

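In 9 of 98 groups of 4 libraries (49 genes in each tissue) the highest or lowest library lay so far from the next that the gap exceeded Dixon's 95% critical value, where chance gives about 1 in 20. Epidermis replicate 1 was far above the other epidermis libraries for LHCB1.1 (1392 CPM), PETE1 (217 CPM), ATPC1 (416 CPM) and ATPD (476 CPM), each within or above the mesophyll range of that gene. Mesophyll replicate 2 was far below the other mesophyll libraries for LHCB1.4 (23.9 CPM) and LHCB1.5 (2635 CPM). Mesophyll replicate 4 was far above them for LHCB4.3 (201 CPM) and PSBQ2 (1756 CPM), and mesophyll replicate 3 for PETE2 (752 CPM).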

How the results depend on the processing

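The direction of the median held throughout: over all 20 alternatives the median log2 fold change of the 49 genes was between -0.54 and -0.29, and 47 or 48 genes (47 of 48 tested with the 10 CPM filter) were negative. The number called lower was 1 with the replicate block, 3 with no replicate block and 10 with DESeq2, and 0 without replicate 1, 2, 3 or 4 under the block. Without epidermis replicate 1 and with no block it was 13, and 1 without any other library, so that it ran from 0 to 13 over all settings. The sign changed for PSAH2 alone, whose log2 fold change was 0.0195 with no replicate block and between -0.22 and 0.10 when a replicate was left out under the block, above 0 without replicates 3 and 4. With no block it was 0.0273, 0.11 and 0.10 without epidermis replicates 2, 3 and 4, and 0.0285, 0.0207 and 0.0563 without mesophyll replicates 2, 3 and 4. Libraries with the same number did not deviate together (correlations of 0.01, -0.00, 0.07 and -0.01 over 15794 genes, with 1 of 4 best matched to its own number), so the numbers were not shown to pair samples. Over all genes 171 were called with the block, 361 without it, 821 by the likelihood ratio test and 1320 by DESeq2. The 10 CPM filter removed LHCB7, and the depth of LHCB7 and LHCA6 limits what can be said of them. The causes of these shifts were not tested.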
